A study of Mus musculus with 15 samples.

Results

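The spleen was compared with 11 other adult mouse tissues by the reads of their mature microRNAs (miRNAs), with 1 library of small RNA per tissue. The spleen library was 1 of 15 in the series, and it was set against brain, eye, heart, kidney, liver, lung, salivary gland, smooth muscle, spinal cord, stomach and testis. Libraries titled as embryos were left out, so that 12 of 15 libraries entered the comparison. Every mature miRNA was ranked by its share of spleen reads over the median and over the highest share among the other 11 tissues. The use of the 5p and 3p arms of each hairpin was compared in the same way. All groups were total RNA from a commercial mouse panel, with no treatment or genetic change named in the labels. For the mice behind each tissue, the sources used here give no strain, age, sex or number. By its title, the study is about arm switching, in which a hairpin comes to yield mainly its other strand.

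A miRNA is cut from a hairpin precursor and loaded into an Argonaute protein, which it guides to messenger RNAs that pair with its seed, the stretch near its 5′ end. The spleen filters the blood, removes worn red cells and stores platelets in its red pulp, while its white pulp holds B and T lymphocytes around the arterioles. In the mouse the red pulp also makes red cells. Several miRNAs are known from these cells. The hairpin of miR-142a is active in nearly all blood cell lineages, miR-150 is a miRNA of mature lymphocytes, miR-223 of granulocytes and other myeloid cells, and miR-155 of activated lymphocytes and macrophages. The adjacent miR-144 and miR-451a are made in red cell precursors. The miR-17-92 cluster is known for its part in lymphocyte growth and survival.

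The sequences below are mature miRNAs on which the comparison with the other tissues turns, from RefSeq on GRCm38.p6, written 5′ to 3′ with the seed (bases 2 to 8) in capitals.
miR-142a-3p: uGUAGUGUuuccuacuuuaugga
miR-142a-5p: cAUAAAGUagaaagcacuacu
miR-223-3p: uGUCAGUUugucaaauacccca
miR-155-5p: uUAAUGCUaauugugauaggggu
miR-146a-5p: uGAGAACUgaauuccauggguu
miR-146b-5p: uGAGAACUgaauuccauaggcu
miR-144-3p: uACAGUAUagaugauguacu
miR-451a: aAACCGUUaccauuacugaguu
miR-216a-5p: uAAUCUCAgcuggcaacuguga
miR-33-5p: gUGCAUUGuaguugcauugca
The hairpin of miR-142a lay at chr11:87756864-87756927 on the plus strand, in an intron of the long non-coding RNA gene Mir142hg. It is shown because both of its arms led the spleen, and the capitals here mark the 5p and the 3p mature strands.
Mir142 hairpin: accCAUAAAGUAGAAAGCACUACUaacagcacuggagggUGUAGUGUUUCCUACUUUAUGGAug
The next set pairs miRNAs of the miR-17-92 cluster with their paralogs on chromosome X, since members of a pair share a seed and differ by 1 or 2 bases, while the paralogs had the larger excess in spleen.
miR-17-5p: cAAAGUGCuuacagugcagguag
miR-106a-5p: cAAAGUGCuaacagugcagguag
miR-20a-5p: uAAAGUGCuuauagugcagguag
miR-20b-5p: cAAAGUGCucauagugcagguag
miR-18a-5p: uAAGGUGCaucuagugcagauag
miR-18b-5p: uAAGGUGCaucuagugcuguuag

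The spleen library held 2222588 reads on 880 mature miRNA names. The other 11 held 148052 (testis) to 3161463 (brain) reads, and stomach, with 922137, came next after testis. In spleen 3 reads were worth 1.35 CPM (reads per 1000000 reads listed in the library) and in testis 20.3 CPM, so testis values were the least precise. A share of this kind falls when other miRNAs take more of the library. With 1 library per tissue no difference has a replicate check. The intervals given are exact 95% intervals of counting error only. For a ratio to the median, the interval uses the reads of the tissue at the median and leaves out the spread between tissues. In such bulk RNA, more cells of a type and more of a miRNA per cell cannot be told apart. The smooth muscle library had 147721 CPM of miR-194-5p and 96410 CPM of miR-215-5p, both known from gut epithelium, and its counts below were also run without it.

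A name was compared when it had at least 20 spleen reads, or a median in the other tissues worth that many, which left 463 of 1558 names. Only through their spleen reads passed 54 of the 463, with a median elsewhere worth fewer than 20 spleen reads, and 38 of these 54 were at least 4-fold above that median. A name that passed in this way is high in spleen by the rule. In turn, a name with fewer than 20 spleen reads passed only through the other tissues and is below their median by the rule. Of all 463, 78 (16.8%) were at least 4-fold above the median of the other tissues and 71 (15.3%) were at 0.25 times it or less. At least 2-fold above the highest other tissue were 13 names (2.81%), and above every other tissue were 35 (7.56%). The same rules applied to each other tissue in turn gave 26 (liver) to 230 (spinal cord) names at least 4-fold above the median and 5 (salivary gland and smooth muscle) to 100 (testis) at least 2-fold above the highest. The median ratio over all 463 names was 1.02. Of the 78, the spleen was the highest of the 12 tissues for 26, second for 35 and lower for 17, and 30 rested on fewer than 100 spleen reads. Testis was the highest other tissue for 39 of them. Without testis, 32 names in place of 13 were at least 2-fold above the highest other tissue, and without testis and smooth muscle, 38 were. All 13 names were still among them in both cases.

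The 13 names were both arms of the miR-142a, miR-150 and miR-223 hairpins, miR-155-5p, miR-146a-3p, miR-21a-3p, miR-216a-5p, miR-18b-5p, miR-19a-5p and miR-5107-5p. Just outside this set were miR-146a-5p at 1.99-fold and miR-33-5p at 1.96-fold, and just inside were miR-21a-3p at 2.09-fold and miR-5107-5p at 2.28-fold. miR-146a-3p, miR-19a-5p and miR-5107-5p had only 28 to 33 spleen reads, and the interval of miR-5107-5p over stomach, 0.94 to 6.66, spanned 1. These names and miR-18b-5p had 0 reads in testis, which allows up to 20.3 CPM there. Their spleen levels were 12.6 CPM (miR-146a-3p) to 29.2 CPM (miR-18b-5p), so a 2-fold excess over testis is not certain for them. Among the 13 names, miR-223-5p, miR-146a-3p, miR-216a-5p, miR-18b-5p, miR-19a-5p and miR-5107-5p were compared only through their spleen reads. Their medians elsewhere were 0.79 CPM (miR-18b-5p) to 7.91 CPM (miR-216a-5p), and the rule places such names above the median. In a fit by edgeR's quasi-likelihood test across 822 names, which takes the spread between the 11 unlike organs as its error, 0 names were higher and 0 were lower in spleen at a Benjamini-Hochberg adjusted p of 0.05 (0% each). At an unadjusted p under 0.05 there were 9 higher and 3 lower names. The smallest adjusted p in this edgeR test was 0.657, and miR-142a-3p had a log2 fold change of 4.48 with an unadjusted p of 0.00846. By the DESeq2 Wald test 1 name was higher, miR-467d-5p, with a log2 fold change of 2.41 and an adjusted p of 0.0244, though its level was 94.9 CPM in spleen and 331 CPM in testis. The ratios that follow therefore describe these libraries.

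**Figure D1:**
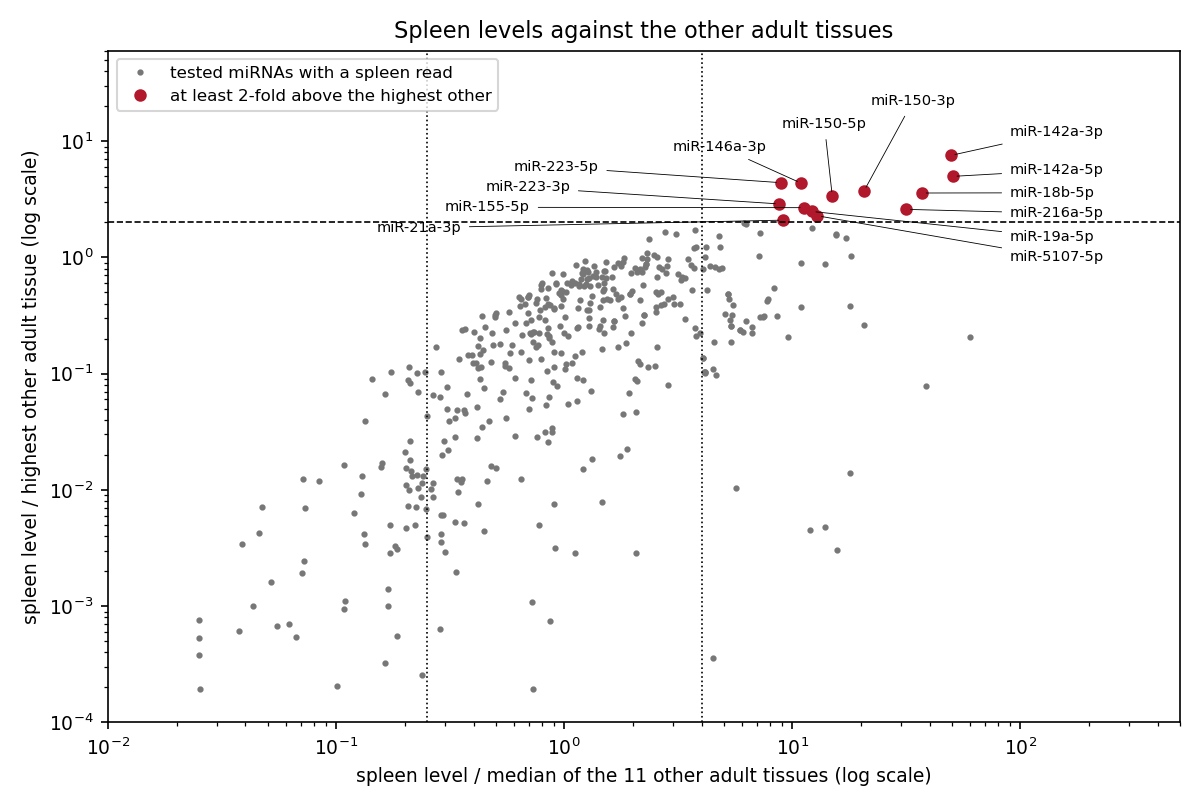
Ratio of the spleen level to the median of the 11 other adult tissues (x axis, log scale) and to the highest of them (y axis, log scale), with 1 dot per compared miRNA with a spleen read. Red dots are the 13 names at least 2-fold above the highest other tissue (dashed line), led by miR-142a-3p at 49.6-fold and 7.55-fold, and dotted lines mark 4 and 0.25 times the median.

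The leukocyte list of 5 miRNAs stood far above the other tissues. Together they took 26.1% of spleen reads, or 261452 CPM, against a lowest sum of 1342 CPM in eye, a median of 5930 CPM and a highest of 43852 CPM in salivary gland. All 5 were at least 4-fold above the median and at least 2-fold above the highest other tissue. Their median ratio was 15.0, beside 1.02 over all compared names. All but miR-142a-5p were given with the choice of tissue, and the list is no independent evidence of its identity.

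miR-142a-3p, from the hairpin active across blood cell lineages, was the most abundant spleen miRNA at 170697 CPM (170155 to 171241), or 17.1% of reads. In the other tissues it had 259 CPM in eye, a median of 3445 CPM and 22623 CPM in salivary gland, with lung next at 21898 CPM. The spleen was 49.6-fold (45.4 to 54.2) above the median and 7.55-fold (7.47 to 7.62) above salivary gland, and no other tissue overlapped it. The median was the testis value, from 510 reads, and the ratio to it was 44.0 to 59.2 as single tissues were left out. The opposite arm, miR-142a-5p, had 54376 CPM in spleen, against 136 CPM in eye, a median of 1074 CPM and 10910 CPM in salivary gland. It was 50.6-fold above that median and 4.98-fold above the highest.

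The lymphocyte miRNA miR-150-5p had 27986 CPM in spleen, against 423 CPM in liver, a median of 1870 CPM and 8243 CPM in salivary gland. This was 15.0-fold (14.6 to 15.4) above the median and 3.40-fold (3.34 to 3.45) above the highest. The myeloid miRNA miR-223-3p had 6474 CPM in spleen, against 86.4 CPM in brain, a median of 738 CPM and 2243 CPM in lung. Its spleen level was 8.77-fold above the median and 2.89-fold (2.80 to 2.97) above lung. miR-155-5p, induced on activation of lymphocytes and macrophages and cut from an exon of Mir155hg on chromosome 16, had 1919 CPM in spleen, against 15.2 CPM in brain, a median of 170 CPM and 716 CPM in salivary gland. It was 11.3-fold above the median and 2.68-fold (2.53 to 2.85) above the highest. None of these miRNAs had a tissue that overlapped the spleen. Without salivary gland, the excess of miR-155-5p over the highest other tissue was 5.51-fold. Library sizes scaled by TMM, a method that discounts a few abundant names, gave 74.5-fold above the median for miR-142a-3p and 5.50-fold for miR-223-3p.

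**Figure D2:**
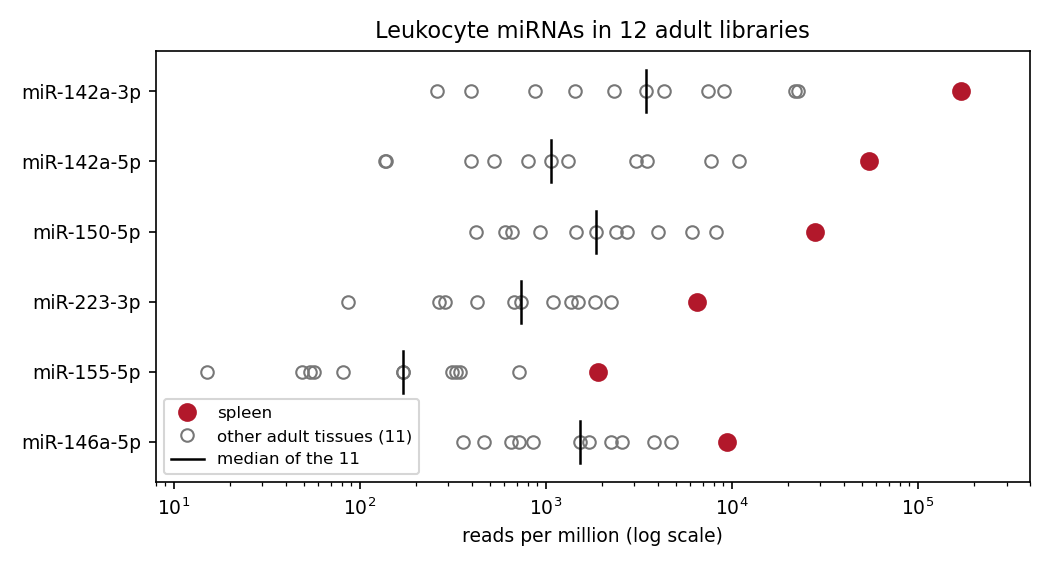
CPM (log scale) of 6 leukocyte miRNAs in spleen (red) and in each of the 11 other adult tissues (open circles), with a bar at the median of the 11. The spleen was highest for all 6, by 7.55-fold for miR-142a-3p and 1.99-fold for miR-146a-5p over the next tissue.

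The excess was not equal among these miRNAs. Per 100 reads of miR-142a-3p the spleen had 3.79 reads of miR-223-3p, against 6.01 in salivary gland, a median of 21.7 and 111 in eye. For miR-155-5p this ratio was 1.12 in spleen, against 1.32 in liver, a median of 3.81 and 24.3 in heart. The spleen had the lowest ratio of the 12 tissues for both. For miR-150-5p the ratio was 16.4 in spleen, against 9.81 in liver, a median of 40.3 and 470 in brain, which placed the spleen 11th of 12. The 2 arms of the miR-142a hairpin kept closer proportions, with a 5p share of 24.2% in spleen (24.0 to 24.3) and of 23.3% (liver) to 34.4% (eye) elsewhere.

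Of the lymphocyte and immune response list, 9 of 10 names could be compared, 6 were at least 4-fold above the median, 0 were at or under 0.25 times it and 3 were in between. Over all 463 compared names, 16.8% were at least 4-fold above the median and 15.3% at or under 0.25 times it. Among the 6 were miR-150-5p and miR-155-5p, which are also in the leukocyte list and were given with the choice of tissue. miR-146a-5p, which dampens NF-κB signalling, had 9401 CPM in spleen, against 359 CPM in brain, a median of 1533 CPM and 4716 CPM in lung. It was 6.13-fold (5.89 to 6.39) above the median, and the spleen was the highest tissue. miR-146b-5p, with the same seed and differing at G18A and U21C (positions from the 5′ end, base of miR-146a-5p first), was not highest there. It had 867 CPM in spleen, against 77.8 CPM in liver, a median of 337 CPM and 1782 CPM in lung. miR-342-3p, from an intron of Evl and known from B cells, had 2420 CPM in spleen, against 223 CPM at the lowest, a median of 578 CPM and 1959 CPM in testis. Its ratio of 4.19 to the median was 3.32 to 3.43 without any 1 of heart, kidney, liver, lung, salivary gland or smooth muscle. The other arm, miR-342-5p, was at 4.14 times the median, and at 2.93 to 3.17 times it without any 1 of the same tissues. miR-150-3p was 20.6-fold above the median and 3.74-fold above salivary gland, which became 7.25-fold over the next tissue without salivary gland.

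miR-181a-5p and miR-181b-5p, known for T cell development in the thymus, did not stand out in the spleen. miR-181a-5p had 5136 CPM in spleen, against a median of 5698 CPM and 44802 CPM in eye. miR-181b-5p had 742 CPM in spleen, against a median of 895 CPM and 13797 CPM in eye.

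In the myeloid list, 3 of 4 names were at least 4-fold above the median (16.8% over all 463 compared names) and 1 was in between. The 3 include miR-223-3p, also a leukocyte marker given with the choice of tissue, and miR-223-5p, compared only through its spleen reads. miR-21a-5p, a miRNA of macrophages and of many injured or growing tissues, had 67266 CPM in spleen, against 4354 CPM in brain, a median of 29562 CPM and 76116 CPM in liver. The spleen was second to liver, and among spleen miRNAs only miR-142a-3p and miR-451a had more reads. Its opposite strand miR-21a-3p was highest in spleen at 241 CPM, against a median of 26.4 CPM and 115 CPM in stomach. Its ratio of 9.11 to the median was 5.56 without any 1 of brain, eye, heart, spinal cord or testis, and 15.4 without any 1 of liver, lung, salivary gland, smooth muscle or stomach. miR-511-3p, from an intron of the macrophage mannose receptor gene, was not on the lists and was picked after its values were seen. It had 265 CPM in spleen, against a median of 37.0 CPM and 257 CPM in testis.

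The erythroid list held 10.6% of spleen reads. Of its 4 names, 3 were at least 4-fold above the median (16.8% over all 463 compared names). None was 2-fold above the highest tissue. miR-451a, whose hairpin is cut by Ago2 in place of Dicer, had 82292 CPM in spleen, against 4487 CPM in smooth muscle, a median of 20266 CPM and 102603 CPM in lung. The spleen was second, and its ratio of 4.06 to the median was 3.97 without any 1 of brain, eye, smooth muscle, stomach or testis. miR-144-3p, from the same locus of 198 bases on chromosome 11, had 19412 CPM in spleen, against 146 CPM in eye, a median of 1074 CPM and 19041 CPM in lung. This was 18.1-fold (15.5 to 21.3) above the median but only 1.02-fold (1.01 to 1.03) above lung. Under TMM scaling it was 0.85 times the lung level, so that the order of spleen and lung depended on the scaling. Without lung, miR-144-3p in spleen was 5.81-fold above the next tissue and miR-451a 1.63-fold. TMM scaling gave 6.90-fold above the median for miR-451a.

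miR-486a-5p, encoded at another locus and also abundant in red cells, had 3542 CPM in spleen, against a median of 1586 CPM and 11111 CPM in heart. The summed list had 106171 CPM in spleen, against 5165 CPM in smooth muscle, a median of 23635 CPM and 127338 CPM in lung. The labels do not say how much blood the organs held, and its part in these values was not tested.

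The balance between miR-144-3p and miR-451a set the spleen apart from the other adult tissues. Per 100 miR-451a reads the spleen had 23.6 reads of miR-144-3p (23.3 to 23.8). The other tissues had 2.41 (eye) to 18.6 (lung, 18.4 to 18.7), with a median of 4.69. The spleen value lay above all 11, and no interval overlapped it. Spleen, lung and salivary gland, the last at 16.5, were the 3 highest. Within the miR-144 hairpin the 5p share was 4.55% in spleen (4.36 to 4.74), the lowest of the 12 tissues. It was 5.18% in stomach, 5.74% in lung (5.56 to 5.93), 15.2% at the median and 26.6% in spinal cord. The stomach interval, 3.69 to 7.05, and the testis interval overlapped that of the spleen. The hairpin lay at chr11:78073005-78073070 on the plus strand, and its 5p and 3p strands are in capitals.
Mir144 hairpin: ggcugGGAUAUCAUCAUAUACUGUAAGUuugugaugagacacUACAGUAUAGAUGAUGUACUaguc

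**Figure D3:**
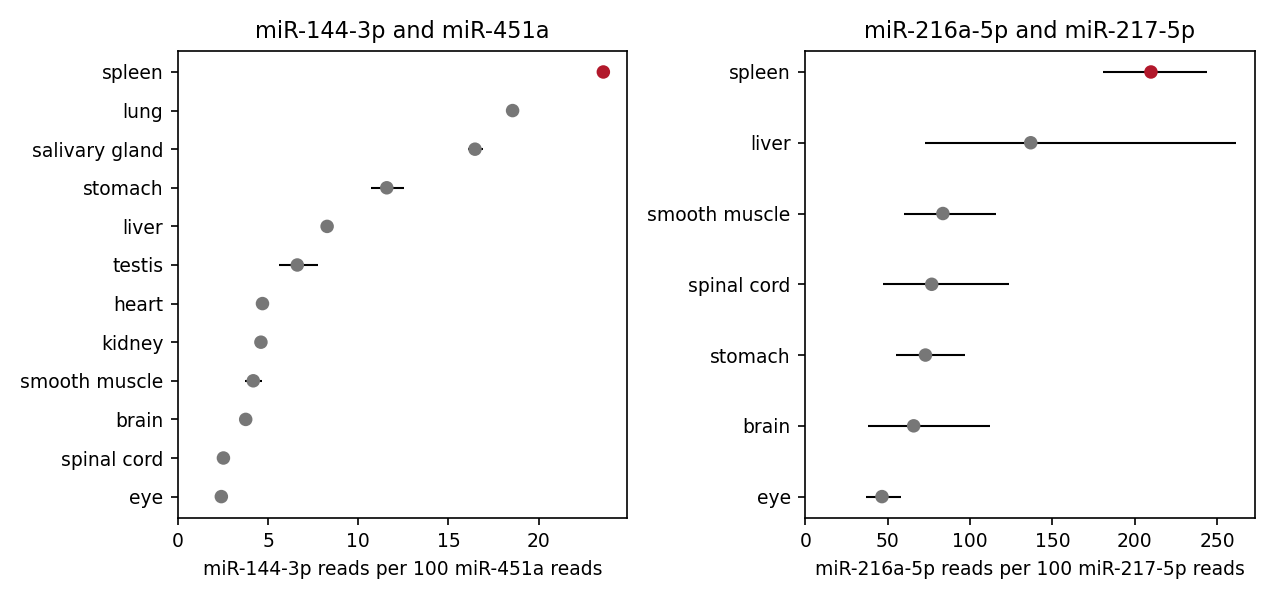
Reads of miR-144-3p per 100 reads of miR-451a (left) and of miR-216a-5p per 100 reads of miR-217-5p (right) in spleen (red, top row) and the other adult tissues (grey), with exact 95% intervals of counting error as lines. The spleen was highest in both, at 23.6 and 210, and on the right only the liver interval reached it.

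Endothelial and megakaryocyte miRNAs were not higher. None of 4 names was at least 4-fold above the median or at 0.25 times it or less, and their median ratio was 1.01. miR-126a-3p, from the endothelial gene Egfl7, had 9534 CPM in spleen, against 5346 CPM in stomach, a median of 8567 CPM and 67471 CPM in lung.

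Of 12 miRNAs of the miR-17-92 cluster and its paralogs, 5 were at least 4-fold above the median, 7 were in between and 0 were low, with a median ratio of 3.20. Over all 463 compared names, 16.8% were at least 4-fold above the median. Among the 5, miR-363-3p was compared only through its spleen reads. The ubiquitous cluster in Mir17hg on chromosome 14 was second in spleen, behind testis, for all of its 6 listed names by share of total reads. Under TMM scaling the spleen was instead highest for miR-17-5p, miR-20a-5p and miR-92a-3p, at 1.196, 1.07 and 1.19 times the highest other tissue, and under DESeq2 size factors for miR-17-5p and miR-92a-3p, at 1.01 and 1.17 times it. miR-19b-3p and miR-92a-3p are also encoded on chromosome X, so their reads cannot be assigned to 1 locus. miR-17-5p had 3474 CPM in spleen, against 250 CPM at the lowest, a median of 1103 CPM and 4816 CPM in testis. miR-18a-5p, at 1357 CPM in spleen, was 6.25-fold above the median and miR-19a-3p, at 2740 CPM in spleen, was 4.23-fold above it. miR-20a-5p was 3.26-fold above the median, and 4.02-fold without any 1 of kidney, lung, salivary gland, smooth muscle or testis. Testis, with 148052 reads, was the highest tissue for these names. Without it, the spleen was 1.41-fold to 2.39-fold above the highest other tissue for all 6.

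The chromosome X paralogs, from miR-106a to miR-363 within 867 bases, showed a larger excess at low levels. miR-20b-5p had 389 CPM in spleen, against 1.27 CPM in brain, a median of 22.6 CPM and 264 CPM in kidney. The spleen was 17.2-fold (12.8 to 23.6) above the median and 1.48-fold (1.31 to 1.67) above kidney. miR-106a-5p had 211 CPM in spleen, against 0.95 CPM in brain, a median of 13.5 CPM and 132 CPM in kidney. miR-363-3p had 59.8 CPM in spleen, against a median of 3.85 CPM and 38.3 CPM in kidney. Without kidney these 3 were 2.79-fold to 3.57-fold above the next tissue. Under TMM scaling miR-20b-5p was 30.6-fold and miR-106a-5p 23.9-fold above the median. miR-18b-5p rested on 65 spleen reads, or 29.2 CPM, against a median of 0.79 CPM and 8.16 CPM in salivary gland, a 3.58-fold excess (2.08 to 6.52) over the highest. In testis it had 0 reads, which allows up to 20.3 CPM. It and miR-363-3p were compared only through their spleen reads, which places them above the median by the rule. Kidney and spleen were the 2 highest tissues for 3 of these 4 paralogs.

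Except for miR-18b-5p, the paralogs were also set against their relatives of the miR-17-92 cluster. miR-106a-5p (U10A, base of miR-17-5p first, positions from the 5′ end) had 6.07 reads per 100 of miR-17-5p in spleen, against 0.28 in testis, a median of 1.93 and 7.38 in kidney. miR-20b-5p had 7.85 reads per 100 of miR-20a-5p in spleen, against 0.26 in testis, a median of 2.63 and 12.8 in kidney. Per 100 reads of miR-92a-3p there were 1.14 reads of miR-363-3p in spleen, against 0 in testis, a median of 0.25 and 2.53 in kidney. The spleen was second to kidney in all 3. With so few differing bases, reads with an error could be counted under the wrong twin, and this was not tested. The other paralog cluster, in Mcm7 on chromosome 5, had 1 member highest in spleen. This was miR-106b-5p, with 4264 CPM in spleen, against a median of 1380 CPM and 2686 CPM in lung, while miR-93-5p and miR-25-3p, at 0.80 and 0.81 times the testis level, were second to testis by share of total reads. With DESeq2 size factors they were 1.02 and 1.14 times the highest other tissue.

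Grouped by shared seed, 48 seeds had more than 1 name and at least 100 spleen reads. Only 2 were at least 4-fold above the median, GAGAACU of miR-146a and miR-146b at 6.37-fold, highest in spleen, and AAGGUGC of miR-18a and miR-18b at 6.34-fold. The AAAGUGC seed of miR-17, miR-20, miR-93 and miR-106 summed to 18234 CPM in spleen, against a median of 6125 CPM and 21013 CPM in testis. The AGCAGCA seed of miR-15 and miR-16 summed to 49685 CPM in spleen, against a median of 19299 CPM and 65295 CPM in testis. Within it miR-15a-5p was highest in spleen, at 11217 CPM, against a median of 3032 CPM and 9233 CPM in testis.

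miR-33-5p, from an intron of the sterol regulator gene Srebf2 and known to act on cholesterol export, was highest in spleen. It had 1137 CPM in spleen, against 28.2 CPM in heart, a median of 182 CPM and 581 CPM in lung, which was 6.25-fold (5.56 to 7.06) above the median. miR-32-5p, with the AUUGCAC seed of miR-92a, had 1701 CPM in spleen, against a median of 358 CPM and 1105 CPM in lung. Its ratio of 4.75 to the median was 3.85 without any 1 of brain, eye, heart, spinal cord or stomach. For both, and for miR-146a-5p and miR-451a, lung was the highest other tissue.

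Markers of the pancreas, which lies beside the spleen in the mouse, were also high. Of 7 pancreas names 4 were compared and 3 were at least 4-fold above the median (16.8% over all 463 compared names). However, miR-216a-5p was given with the choice of the spleen, and it and miR-216b-5p were compared only through their spleen reads. miR-216a-5p, known from pancreatic acinar cells, had 250 CPM in spleen, from 556 reads. It was at 0 in salivary gland (up to 1.44 CPM allowed by a count of 0), with a median of 7.91 CPM in the other tissues and 96.5 CPM in stomach. The spleen was 31.6-fold (21.2 to 49.3) above the median and 2.59-fold (2.07 to 3.28) above stomach, or 5.52-fold above the next tissue without stomach. TMM scaling gave 48.5-fold above the median. miR-217-5p had 119 CPM in spleen, against a median of 10.9 CPM and 132 CPM in stomach. miR-216b-5p had 93.6 CPM in spleen, against a median of 6.75 CPM and 106 CPM in stomach. The order of spleen and stomach depended on the scaling for both. The ratios to stomach by share of total reads, 0.90 (0.72 to 1.13) for miR-217-5p and 0.88 (0.69 to 1.13) for miR-216b-5p, had intervals that spanned 1, and DESeq2 size factors gave 1.09 and 1.07. The ratio of miR-217-5p to the median, 10.9, was 17.8 to 19.3 without any 1 of 6 tissues, and that of miR-216b-5p, 13.9, was 8.61 to 8.66 without any 1 of 6. The islet miRNA miR-375-3p was not high, at 635 CPM in spleen, against a median of 330 CPM and 9296 CPM in salivary gland. The summed pancreas list ran from 3.05 CPM in heart to 9296 CPM in salivary gland, with 1111 CPM in spleen. How much pancreas RNA the spleen library held was not tested.

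The 3 acinar miRNAs lie within 17.58 kb on chromosome 11, miR-216a and miR-217 in an intron of Gm12082. Per 100 reads of miR-217-5p the spleen had 210 reads of miR-216a-5p (181 to 244). The 6 other tissues with enough reads had 46.6 (eye) to 137 (liver), with a median of 74.8. The liver value rested on 26 and 19 reads and its interval, 72.9 to 262, overlapped that of the spleen. Per 100 reads of miR-216b-5p the spleen had 267 reads of miR-216a-5p (228 to 315), against 52.3 (eye) to 119 (brain), and no interval overlapped it.

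Markers of other organs were present at low levels. Over all 463 compared names, 16.8% were at least 4-fold above the median. miR-122-5p, the hepatocyte miRNA, had 1496 CPM in spleen, against 15.2 CPM in brain, a median of 108 CPM and 311546 CPM in liver. The spleen came after liver, testis and stomach. Both hepatocyte names, the arms of the same hairpin, were at least 4-fold above the median. Of these, miR-122-3p, with 98 spleen reads, was compared only through its spleen reads. miR-802-5p had 695 CPM in spleen, against 1.53 CPM in heart, a median of 33.8 CPM and 2626 CPM in smooth muscle. Its ratio of 20.6 to the median was 5.15 to 31.7 as single tissues were left out, since the 11 values formed a low and a high set. Of the gut and kidney epithelium list 1 of 3 was at least 4-fold above the median, miR-215-5p, which was compared only through its spleen reads. It had 34.6 CPM in spleen and 96410 CPM in smooth muscle. Its 4-fold call was lost, at 1.52 to 1.59, without any 1 of brain, eye, kidney, liver, lung or salivary gland. Of 4 Hox cluster names compared, 2 were at least 4-fold above the median, both compared only through their spleen reads. miR-196a-5p had 20.7 CPM in spleen, against a median of 1.15 CPM and 1480 CPM in kidney, and miR-196b-5p had 22.9 CPM in spleen, against a median of 4.05 CPM and 2191 CPM in kidney. The ratio of miR-196a-5p to the median, 18.0, was 9.17 to 9.31 without any 1 of brain, eye, heart, liver, lung or stomach.

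**Figure D4:**
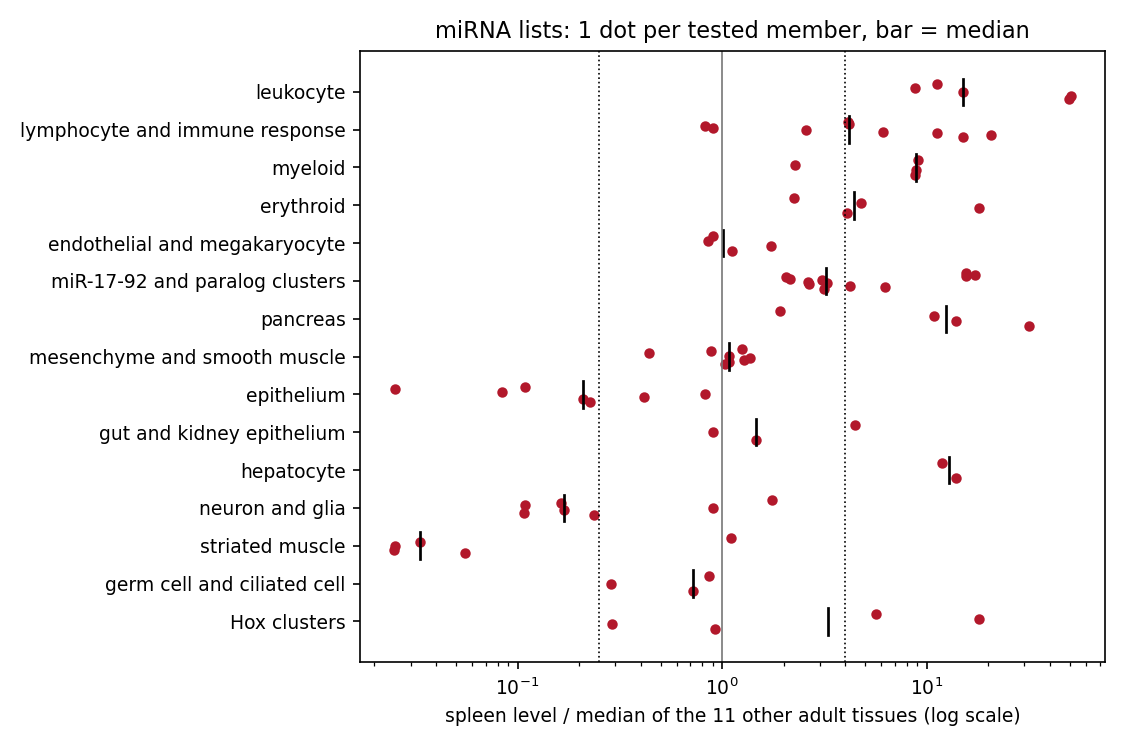
Ratio of the spleen level to the median of the 11 other adult tissues (log scale) for each compared member of 15 miRNA lists, with 1 dot per miRNA and a black bar at the median of the list. Leukocyte members lie at 8.77-fold to 50.6-fold and the striated muscle and epithelium lists reach down to 0.025-fold, with a grey line at 1 and dotted lines at 0.25 and 4.

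Most of the epithelial, neural and striated muscle miRNAs compared were low in the spleen. Of 7 epithelium names, 5 were at 0.25 times the median or less (15.3% over all 463 compared names) and 2 were in between. miR-205-5p, of stratified epithelium, had 12.1 CPM in spleen, from 27 reads, against a lowest of 4.58 CPM, a median of 483 CPM and 22649 CPM in stomach, or 0.025 times the median (0.0164 to 0.0369). Without 1 tissue this was at most 0.042. miR-203-3p, of the same epithelia, was at 0.11 times the median and miR-429-3p, of the miR-200 family, at 0.084 times it. miR-200a-3p and miR-200b-3p were at 0.23 and 0.21 times the median, and at 0.11 and 0.14 times it without brain, heart, liver, spinal cord or testis. miR-200c-3p and miR-141-3p were the members in between, at 0.41 and 0.82 times the median. The epithelium list summed to 1790 CPM in spleen, against 186 CPM in heart, a median of 17384 CPM and 92499 CPM in stomach.

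Of 7 striated muscle names, 5 could be compared and 4 of them were at 0.25 times the median or less (15.3% over all 463 compared names). The other, miR-499-5p, was at 1.11 times the median. Among the 4, miR-133b-3p, with 11 spleen reads, and miR-206-3p, with 0, passed only through the other tissues. The rule places such names below the median. miR-1a-3p had 118 CPM in spleen, against 358 CPM at the lowest, a median of 2148 CPM and 174153 CPM in heart. miR-133a-3p had 42.7 CPM in spleen, against 265 CPM at the lowest, a median of 1713 CPM and 112141 CPM in heart. The spleen was the lowest of the 12 tissues for both. miR-206-3p of skeletal muscle and miR-208a-3p of heart muscle were at 0 in spleen, which allows up to 1.35 CPM. In the other tissues miR-206-3p had a median of 40.5 CPM, far above that limit.

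Of 7 neuron and glia names, 5 were at 0.25 times the median or less (15.3% over all 463 compared names), while miR-128-3p and miR-338-3p were at 0.90 and 1.75 times it. Among the 5, miR-137-3p, with 15 spleen reads, and miR-219a-2-3p, with 4, passed only through the other tissues. That places both below the median by the rule. The neural miR-9-5p had 98.5 CPM in spleen, against 30.5 CPM at the lowest, a median of 912 CPM and 105010 CPM in brain. miR-137-3p was lowest in spleen of all 12 tissues, at 6.75 CPM from 15 reads, against a median of 61.8 CPM. The call on miR-124-3p, at 0.24 times the median, was lost at 0.251 without brain, eye, salivary gland, spinal cord or testis, and the ratio was 0.081 to 0.083 without any 1 of the others. miR-219a-2-3p rested on 4 spleen reads, at 0.16 times the median, and 0.29 without brain, eye, spinal cord, stomach or testis. None of the 3 germ and ciliated cell names compared was at or beyond either limit. The 8 mesenchyme and smooth muscle names also lay in between, with a median ratio of 1.08. Of these miR-143-3p was sixth of 12 at 37066 CPM in spleen, against a median of 35813 CPM and 174725 CPM in stomach.

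Some low miRNAs belonged to no tissue list. miR-99a-5p, with the ACCCGUA seed, had 1036 CPM in spleen, against 907 CPM in smooth muscle, a median of 5985 CPM and 10031 CPM in heart. Its seed family, with miR-99b-5p and miR-100-5p, summed to 1758 CPM in spleen, the lowest of the 12 tissues, against 2341 CPM at the lowest elsewhere, a median of 9112 CPM and 16811 CPM in spinal cord. miR-99a-5p is encoded in a cluster with let-7c and a miR-125b copy. let-7c-5p was also lowest in spleen, at 12253 CPM, against 17236 CPM at the lowest elsewhere and a median of 28207 CPM. miR-125b-5p, known from haematopoietic stem cells and progenitors, was 11th, at 5512 CPM in spleen, against 3247 CPM at the lowest and a median of 13202 CPM. let-7c-5p and miR-125b-5p were picked after their values were seen.

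miR-99a-5p: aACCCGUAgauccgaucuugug
miR-100-5p: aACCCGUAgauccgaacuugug

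Position grouped the low names further. From Meg3 to Mirg, the imprinted Dlk1-Dio3 region on chromosome 12, 42 of 106 names could be compared. Of these 24 were at 0.25 times the median or less (15.3% over all 463 compared names), 0 were at least 4-fold above it, and the median ratio was 0.24. Those of the 42 with fewer than 20 spleen reads passed only through the other tissues and are below their median by the rule. How many did so was not counted. The region held 24 of the 71 low names. miR-127-3p, at 97.2 CPM in spleen, was lowest of the 12 tissues there, against 106 CPM at the lowest elsewhere, a median of 479 CPM and 20658 CPM in spinal cord. miR-31-5p and miR-190a-5p, outside the region, were lowest in spleen as well. miR-31-5p had 112 CPM in spleen and a median of 524 CPM elsewhere, a ratio of 0.21 that was 0.12 without any 1 of brain, heart, kidney, lung, spinal cord or testis, and miR-190a-5p had 31.0 CPM in spleen and a median of 242 CPM elsewhere.

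A large part of the high names came from repeated sequences. The miR-297, miR-466, miR-467 and miR-669 families held 75 names, of which 39 were not compared and 18 of the other 36 were compared only through their spleen reads. Of the 36, 31 were at least 4-fold above the median (16.8% over all 463 compared names). This was 31 of the 78 high names, and testis was highest for all 36. Given that selection, the count describes the names compared and not the families. miR-467c-5p had 76.0 CPM in spleen, against 4.03 CPM at the lowest, a median of 7.91 CPM and 365 CPM in testis. The testis value rested on 54 reads. Without testis, miR-467c-5p was 2.64-fold and miR-669b-5p 3.14-fold above the next tissue. The pairs miR-467a-5p and miR-467b-5p, miR-669a-5p and miR-669p-5p, and miR-669a-3p and miR-669o-3p had identical counts in every library, so the counts of these families may share reads and are uncertain. miR-669a-3p was also a name just inside the 4-fold limit, at 4.04, with miR-92a-1-5p just outside it at 3.94. At the low limit miR-132-5p lay just inside at 0.2498 and miR-377-3p just outside at 0.259.

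Arm usage in the spleen was close to that of the other tissues. Of 615 hairpins with both arms named, 227 had at least 20 spleen reads and 208 also had them in at least 5 other adult tissues. The 5p share in spleen lay within 5 points of the median of the others for 167 of the 208, and more than 10 points from it for 18. It lay outside the range of the other tissues for 36 hairpins (17.3%), above it for 20 and below it for 16. Each other tissue set against the rest in this way had 20 of 190 (kidney) to 73 of 216 (stomach) hairpins outside the range. In 0 of 208 (0%) did the spleen interval clear the intervals of all other tissues on the same side. This rule called few hairpins in any tissue. Eye also had 0, and stomach had the most, with 3 above and 5 below. Without stomach the spleen interval cleared the others for 2 hairpins, miR-33 and miR-21a, and without liver for 1, miR-126a.

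The miR-136 hairpin, of the Dlk1-Dio3 region, had a 5p share of 64.7% in spleen (57.7 to 71.3, 204 reads), against 33.3% in spinal cord, a median of 44.8% and 56.2% in stomach (49.1 to 63.2). The miR-297c hairpin had 67.4% in spleen (59.0 to 75.0), against a median of 36.7% and 59.0% in lung. These were the 2 hairpins whose spleen interval lay on the other side of 50% from the median of the others. The spleen share also lay across 50% from that median for miR-450b, miR-376b, miR-423 and miR-501, with intervals that spanned 50%. The miR-34b hairpin had the largest gap, 88.4% in spleen and 57.5% at the median, from 43 spleen reads, and salivary gland had 88.0%. At the miR-362 hairpin, with 2629 spleen reads, the share was 20.7% in spleen (19.1 to 22.3), against 19.3% in testis, a median of 32.6% and 38.5% in smooth muscle.

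**Figure D5:**
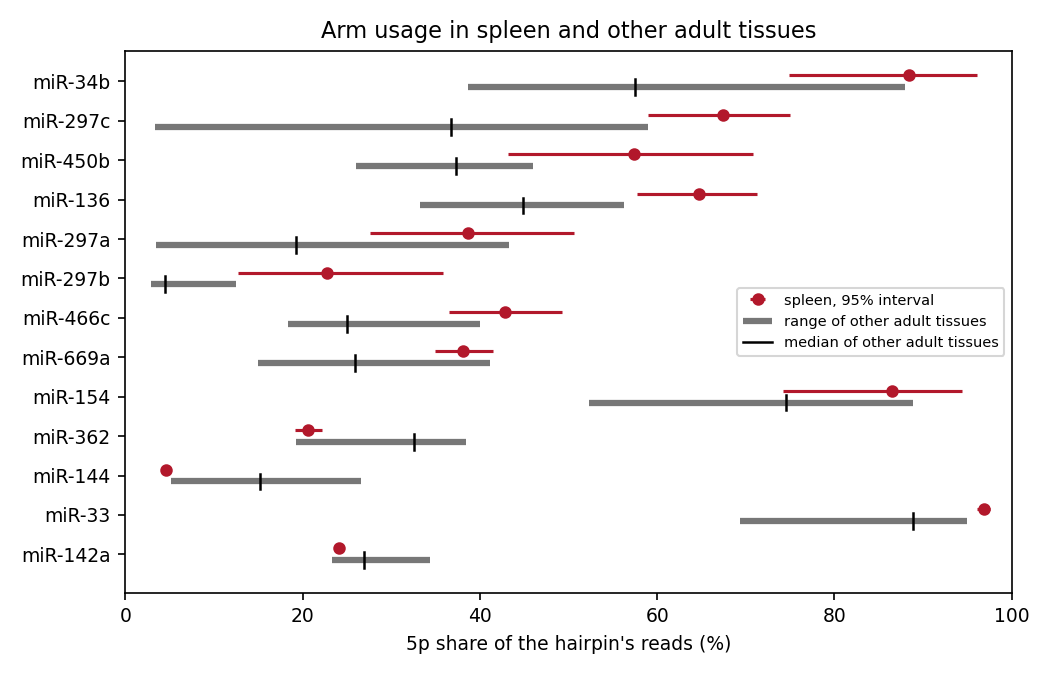
Share of a hairpin's reads that came from the 5p arm (percent) in spleen (red dot with its exact 95% interval) and in the other adult tissues (grey bar from the lowest to the highest, black tick at the median). The 10 hairpins with the largest gap are above miR-144, miR-33 and miR-142a, and the spleen dot lies beyond the grey bar for hairpins such as miR-136 at 64.7%, miR-144 at 4.55% and miR-33 at 96.9%.

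The miR-33 hairpin had a 5p share of 96.9% in spleen (96.1 to 97.5), against 69.3% in spinal cord, a median of 88.9% and 94.9% in lung (93.8 to 95.9). The miR-21a hairpin had 99.64% in spleen, the lowest of the 12, against 99.69% in stomach and 100% in testis. The miR-223 hairpin gave 0.74% of its reads from the 5p arm in spleen (0.61 to 0.89), against 0% in testis, a median of 0.45% and 1.45% in kidney. The miR-324 hairpin, with 43.1% in spleen (39.4 to 46.9), lay inside the range of 26.3% (stomach) to 63.1% (spinal cord).

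Over 579 names the log2 CPM values of spleen had their highest Pearson correlations with lung, liver, kidney and salivary gland, at 0.898 to 0.904, and their lowest with testis at 0.553 and brain at 0.587. Spearman correlations with the same 4 tissues were 0.883 to 0.896. The libraries share the counting and the total to which levels are scaled, and the correlations describe these libraries.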

How the data were processed

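Small RNA libraries of 15 mouse tissues and embryo stages, 1 library each, were made with adapters of randomized ends after gel selection of small RNA, per the labels' protocols. The deposited files hold raw read counts per mature miRNA name. The submitters' processing notes name build mm10 and the tools bcl2fastq 1.8.4, BWA, cutadapt and bedtools. The roles of these tools and the treatment of multiply matching reads are not stated there. Synthetic spike-ins were not used for scaling. Names absent from a library were taken as 0.

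The members and lists were chosen with earlier results of these data known. Groups came from the titles and tissue labels. Counts were divided by the library total to give CPM. A spleen 0, and zeros elsewhere where the median or the highest of the other tissues was 0, were set to 3 counts of their own library. Ratios that use such a value are bounds. Where the median or the highest was above 0, zeros among the other tissues stayed 0. Counting intervals were exact at 95%, Poisson for levels, conditional binomial for ratios and Clopper-Pearson for shares, and cover counting error only, since PCR reads are not independent molecules. edgeR 4.0.16 (R 4.3.3, TMM, filterByExpr, quasi-likelihood test, Benjamini-Hochberg) compared the lone spleen library with the other 11, assuming that it varies as they do. It was also run on simulated libraries that shared a common mean profile apart from planted changes. Since real organs differ in profile, that run does not show how the test performs here. DESeq2 1.42.0 was the alternative. Alternatives also covered scaling, the read minimum, the thresholds, the handling of 0, the embryos and each tissue left out; leaving out testis and smooth muscle together was added after seeing the data.

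Named miRNAs were all list members, the 10 most abundant in spleen, with at least 100 spleen reads the 20 highest over the median and 15 over the highest tissue, the 15 lowest with a median of at least 200 CPM elsewhere, and the 10 hairpins with the largest gap in 5p share, besides names next to a threshold and those said to be picked later. Sequences and positions are from RefSeq (GRCm38.p6), which matched 1326 of 1558 names, and host genes from GENCODE M21. Depth per library is given with the results.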

Additional observations from a re-analysis of the deposited data

Results flagged for a closer look

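The miRNAs that stood at least 2-fold above every other adult tissue in spleen were also looked up in the 3 embryo libraries, which the comparison did not use. In at least 1 embryo, 3 of them were above the highest other adult tissue. The share of all names that were so was not counted, so this is not a trait of these miRNAs. All 3 were compared only through their spleen reads, with 65 for miR-18b-5p, 32 for miR-19a-5p and 107 for miR-223-5p. They had 0 reads in testis, which allows up to 20.3 CPM there. miR-18b-5p, with 29.2 CPM in spleen, had 164 CPM in the 11-day embryo, 37.9 CPM in the 15-day embryo and 17.9 CPM in the 17-day embryo. Its highest counted value in the other adult tissues was 8.16 CPM. miR-19a-5p, with 14.4 CPM in spleen, had 49.8, 32.8 and 25.1 CPM in the 11-, 15- and 17-day embryos. Its highest counted value in the other adult tissues was 5.79 CPM. miR-223-5p, with 48.1 CPM in spleen, had 17.5 CPM in the 17-day embryo, against a highest counted value of 10.9 CPM in the other adult tissues. The 17-day embryo is named by its title, since its source field gives another day.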

How the results depend on the processing

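No paired analysis was possible because each tissue has 1 library and the labels give no replicate numbers. Of 78 names at least 4-fold above the median, a minimum of 100 reads left 48, embryos among the others 49, a 2-fold limit 140 and an 8-fold limit 32. The 71 low names became 38 with 100 reads, 112 with embryos, 134 at the 2-fold and 24 at the 8-fold limit. With embryos, 30.4% of the calls were higher, against 52.3% without. The 13 names at least 2-fold above the highest tissue became 20 with no minimum, 35 with any excess and 4 at 4-fold, and 38 without testis and smooth muscle. Leaving out 1 tissue gave 67 to 81 high names, 52 to 82 low names, and 13 to 32 above the highest, the last without testis. The 13 names remained whichever tissue was left out, and 12 remained under TMM scaling, where miR-21a-3p was 1.95-fold above the highest tissue. DESeq2 called 1 name where edgeR called 0. For the hairpins, 0 became 0 to 2 as single tissues were left out, with 1 without liver and 2 without stomach. Of 563 alternative values for 76 named miRNAs and hairpins, 357 kept their value within the counting interval, 206 moved and 0 called values changed sign.

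Depth limits testis most. There the read minimum and the 3-read floor of 20.3 CPM hide low names, and every ratio over testis carries its counting error. The total counts also fix the scale: with the most abundant name of each library left out of the totals, the median log2 ratio over compared names was 0.11 in place of 0.03.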

Other observations

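The embryos, which entered no comparison of the spleen with adult tissues, give further values for 3 of its patterns. Per 100 miR-451a reads, miR-144-3p had 23.6 reads in spleen, against 5.64 in the 11-day, 28.9 in the 15-day and 21.3 in the 17-day embryo. The 5p share of the miR-144 hairpin was 4.55% in spleen, against 17.4%, 5.75% and 5.26% in the 11-, 15- and 17-day embryos. In the first measure the 2 later embryos lay, like the spleen, above the other adult tissues, and the earliest lay among them. By the 5p share every embryo lay within the range of the other adult tissues, the 2 later ones near its low end.

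Per 100 miR-217-5p reads, miR-216a-5p had 210 reads in spleen, against 69.4 in the 11-day (51.2 to 93.6), 211 in the 15-day (156 to 288) and 211 in the 17-day (147 to 305) embryo. The leukocyte miR-142a-3p had 170697 CPM in spleen, against 2245, 7993 and 8144 CPM in the 11-, 15- and 17-day embryos. miR-150-5p, the lymphocyte miRNA, had 27986 CPM in spleen, against 110, 64.6 and 135 CPM in these embryos, which was below the lowest other adult tissue, liver with 423 CPM. miR-33-5p had 1137 CPM in spleen, against 359, 879 and 1040 CPM in the same order of embryo age.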
